A study of Cyprinus carpio with 2 samples.

Results

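The Dmrt genes measured in the immature testis and ovary of the common carp (Cyprinus carpio), a cyprinid fish, were Dmrt1-1, dmrt2a and dmrta2. They were chosen by name, as every unigene whose first gene name was 1 of these 3 symbols, which gave 5 unigenes of 22634. A unigene is a numbered transcript unit to which the authors gave a protein and a gene name. Dmrt1-1 had 1 unigene, dmrt2a had 1 and dmrta2 had 3. No other unigene carried a Dmrt, doublesex or mab-3 name, and since the lowest value in each library was 1 read, a Dmrt unigene read in only 1 tissue may have no row here. RNA sequencing covered 1 testis library and 1 ovary library of juvenile fish sampled 110 to 130 days post hatch, and the labels give neither a strain nor a treatment, nor the number of fish in a library. With 1 library per tissue no difference has a replicate check, so no test was made. Intervals below are exact 95% intervals on reads and cover counting error only. In whole gonads, fewer cells of a type and less RNA per cell cannot be told apart.

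Dmrt proteins are transcription factors that share the DM domain, a zinc-binding motif named after Doublesex of the fly and MAB-3 of the nematode, proteins that direct sexual development. Dmrt1 is known across vertebrates for driving and keeping the testis fate of the gonad, where it acts in Sertoli cells and germ cells, and in medaka a copy of it on the Y chromosome determines sex. Other members have their best known work outside the gonad. In zebrafish, dmrt2a (terra) acts in the formation of somites and in left-right symmetry, and dmrta2 (dmrt5) acts in the patterning of the forebrain.

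The unigenes fell into a pair rich in testis and 3 higher in ovary, 1 of them by less than 4-fold. Dmrt1-1 and 1 unigene of dmrta2 had 2 ovary reads each against 197 and 247 testis reads. The dmrt2a unigene and the other 2 unigenes of dmrta2 had between 52 and 266 ovary reads against 12 to 33 testis reads. Relative to the median of all unigenes, 2 of the 5 exceeded 4-fold toward testis and 2 exceeded 4-fold toward ovary. The same was found for 13.8% and 11.2% of the 21649 unigenes that reached 5 units in either library. Both unigenes rich in testis are in the authors' own list of unigenes higher in testis. Unigene_60279 of dmrta2 has a row through that list alone, so the selection fixed its direction, while Dmrt1-1 has a row in the expression table as well. The 95% interval of the ratio of reads excluded the median ratio toward testis for 2 Dmrt unigenes and toward ovary for 3, which happened for 27.5% and 30.1% of all unigenes.

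**Figure D1:**
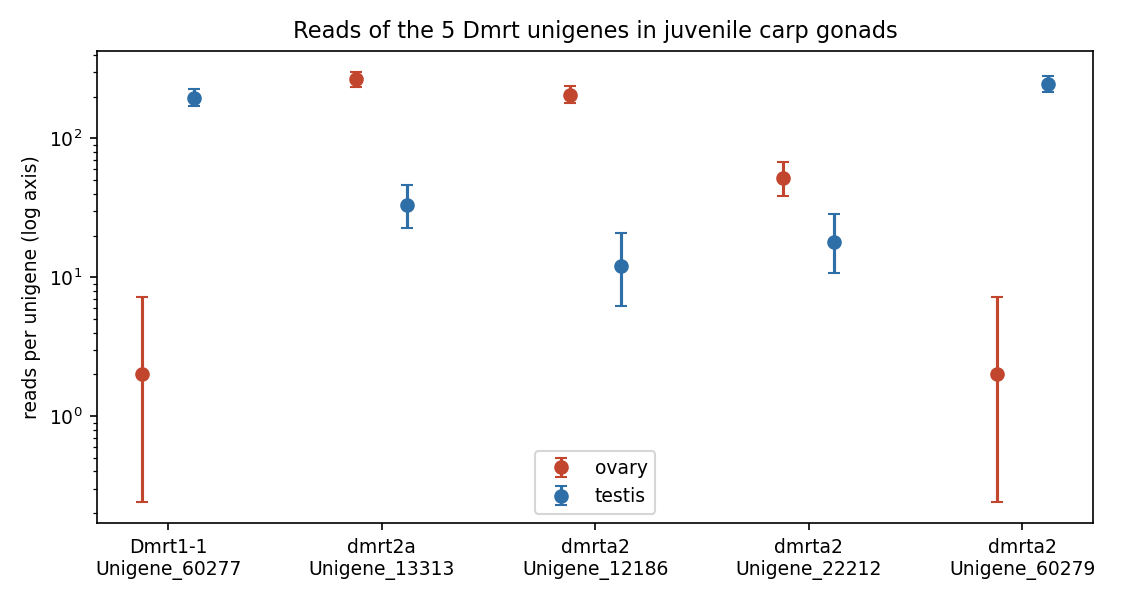
Reads of each Dmrt unigene in the ovary library (red) and the testis library (blue), on a log axis, with exact Poisson 95% intervals of the read numbers. Dmrt1-1 and dmrta2 Unigene_60279 had 2 ovary reads, while the other 3 unigenes had more reads in ovary than in testis.

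The unigenes analysed held 4311799 ovary and 1926860 testis reads, sums that cover annotated unigenes only. In deposited units the ratio of the median unigene was 1.78-fold toward ovary (log2 ratio -0.83), and folds here therefore are relative to that median unless called deposited. The value columns name no tissue, and they were assigned from the titles of the authors' lists. The tissue labels were checked against cell type markers. All 19 unigenes of 7 oocyte markers lay on the ovary side of the median (194313 ovary and 10895 testis reads). All 4 unigenes of the Sertoli cell markers amh, sox9a, wt1a and cldn11a lay on the testis side (30 ovary and 2106 testis reads). These 4 are in the authors' testis list, and wt1a and cldn11a have a row through it alone. Their side is therefore no independent check of the labels. The Sertoli cell marker gsdf had no row, and neither had the germ cell markers ddx4, piwil1 and tdrd1. The germ cell markers with a row, dazl and nanos3, held 3904 ovary and 1587 testis reads over 4 unigenes. The 2 unigenes of dazl lay on the testis side of the median and the 2 of nanos3 on the ovary side. None of 6 neural markers had a row. Skeletal muscle markers held 927 ovary and 38 testis reads over 4 unigenes, with no row for actc1b and mylpfa. Kidney markers held 15 and 67 over 4, with no row for nphs1 and cdh17. Red cell markers held 5 and 8 over 3, with no row for hbaa1 and hbba1. The part of these cell types in the Dmrt values was not tested.

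Dmrt1-1 (Unigene_60277, named Dsx and mab-3 related transcription factor 1-1) is the member tied to the testis. It had 2 ovary reads (4.62 deposited units) and 197 testis reads (341 units). The testis library was therefore the high one, by 131-fold (95% interval 35.9 to 1092), or 73.9-fold in deposited units. The width of the interval follows from the 2 ovary reads. Among 1153 other unigenes with 2 ovary reads, the median had 4 testis reads and 24 had at least as many as Dmrt1-1. A ratio lower than that of Dmrt1-1 was found for 99.6% of all unigenes. Its testis value was above that of 89.6% of unigenes and its ovary value above that of 6.96%. In the authors' deposited table its p-value was 0.0338, from a column whose method and adjustment no source used here states. Of the 22487 unigenes of the expression table, 167 (0.743%) had such a p under 0.05, and of the 4 Dmrt unigenes in it Dmrt1-1 alone did.

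dmrt2a (Unigene_13313) stood on the ovary side. It had 266 ovary reads (614 units) and 33 testis reads (57.2 units). The ovary library was the high one by 6.05-fold (95% interval 4.2 to 8.96), or 10.7-fold in deposited units. Of 809 other unigenes whose ovary reads were within 10% of it, the median had 115 testis reads and 57 had no more than dmrt2a. A lower ratio was found for 6.04% of all unigenes. The authors' deposited table gives it a p-value of 0.164, and it is in neither of their lists.

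The 3 unigenes of dmrta2 went both ways. Unigene_12186 had 207 ovary reads (478 units) and 12 testis reads (20.8 units), which put ovary 12.9-fold higher (95% interval 7.25 to 25.4). Unigene_22212 had 52 ovary reads (120 units) and 18 testis reads (31.2 units), which put ovary 2.17-fold higher (95% interval 1.25 to 3.94). Both are thus richer in ovary, the second by less than the 4-fold threshold. Unigene_60279, whose name adds dmrt5, had 2 ovary reads (5.63 units) and 247 testis reads (428 units). It was 165-fold (95% interval 45.1 to 1367) higher in testis with its ovary value rounded to whole reads, and 135-fold with the value as deposited. Its testis value was above that of 92.7% of all unigenes. In the authors' deposited table the p-values of the expression table were 0.0817 for Unigene_12186 and 0.479 for Unigene_22212. For Unigene_60279 the authors' deposited table is the testis list alone, with a p-value of 0.0217, and most p-values of that list that could be compared differ from the expression table, as given further on.

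**Figure D2:**
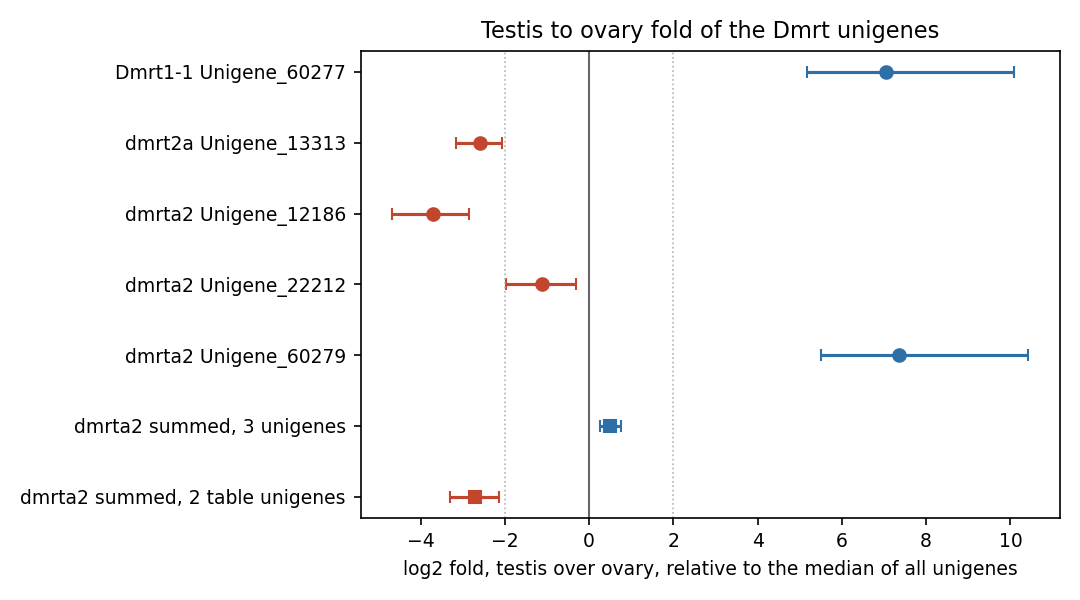
Fold of testis over ovary relative to the median of all unigenes, on a log2 scale, with exact 95% intervals from the reads. Circles are single unigenes, squares are sums over dmrta2 unigenes, and dotted lines mark 4-fold. The 3 dmrta2 unigenes summed were 1.42-fold higher in testis, whereas the 2 of the expression table were 6.48-fold higher in ovary.

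Summed over its unigenes, dmrta2 therefore had no direction that held. All 3 together had 261 ovary and 277 testis reads, 1.42-fold (95% interval 1.19 to 1.68) higher in testis relative to the median and 1.26-fold higher in ovary in deposited units. Unigene_60279 held 89.2% of the summed testis reads and Unigene_12186 held 79.3% of the summed ovary reads. Without Unigene_60279, which has a row in the authors' testis list alone, dmrta2 had 259 ovary and 30 testis reads so that ovary was 6.48-fold higher (95% interval 4.43 to 9.79).

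The width of this split rests on Unigene_60279, which was admitted through the list where it is high. From the lowest to the highest, the log2 ratios of the 3 dmrta2 unigenes spanned 10.47. The 2 dmrta2 unigenes of the expression table spanned 2.55, and 529 of the 2960 symbols with 2 unigenes spanned that much or more. Unigenes at least 4-fold apart from the median in both directions were found for 54 of the 1433 symbols with 3 unigenes (3.77%), dmrta2 among them.

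The unigene of dmrta2 that was rich in testis lay beside Dmrt1-1 in the numbering. Their numbers are 60277 and 60279, with no row between them, and their log2 ratios of 6.75 and 6.84 differed by 0.09. The 6.84 rests on the ovary value of Unigene_60279 as deposited. With that value rounded to 2 reads, the folds of the pair were 131 and 165. Both folds rest on 2 ovary reads, with intervals of 35.9 to 1092 and 45.1 to 1367, so the closeness of the ratios is not well measured. The other unigenes numbered from 60266 to 60288 were zgc:112083, sfxn3, ca10a and a pair of leprot. Their log2 ratios ran from 0.30 to 2.92. Across the files, 1202 of 10712 pairs of unigenes with numbers 2 apart (11.2%) carried the same symbol. The median difference in log2 ratio was 0.62 within such pairs and 1.17 in pairs with different symbols. Of the 9510 pairs with different symbols, 413 (4.34%) differed by no more than Dmrt1-1 and Unigene_60279 did. Among pairs with different symbols whose lower-numbered unigene was at least 4-fold toward testis, 173 of 698 had both so. With numbers 10 apart it was 193 of 771. These counts include unigenes below 5 units, unlike the share of 13.8% given above. The ratio also moved with the number, as given further on, and the part of this in the counts was not tested. The pair of Dmrt1-1 and dmrta2 was described after its values were seen, and 1 of its unigenes has a row only because the authors listed it for testis. Whether both are pieces of 1 transcript was not tested, since no unigene sequence was used here, and reads of near-identical unigenes can be divided between them.

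The row of Unigene_60279 also differs from most others in its values. Its ovary value is 2.44 steps, where a step is the deposited value of 1 read, and is 1 of 2 ovary values that are not whole reads within 0.01 read. The deposited log2 fold of 6.25 matches that value, whereas 2 whole reads would give 6.53. In the testis list as a whole, the log2 fold of 126 of the 171 unigenes differed by more than 0.002 from the one its own value columns give. This was the case for 0 of the 127 unigenes of the ovary list and for 0 of the 22487 of the expression table. Of the 24 unigenes that the testis list shares with the expression table, 16 had a different p-value in the list, and 0 had a different value in either library. For Dmrt1-1 the fold and the p-value are the same in both. The p-value of Unigene_60279 stands in the testis list alone and could not be compared in this way.

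**Figure D3:**
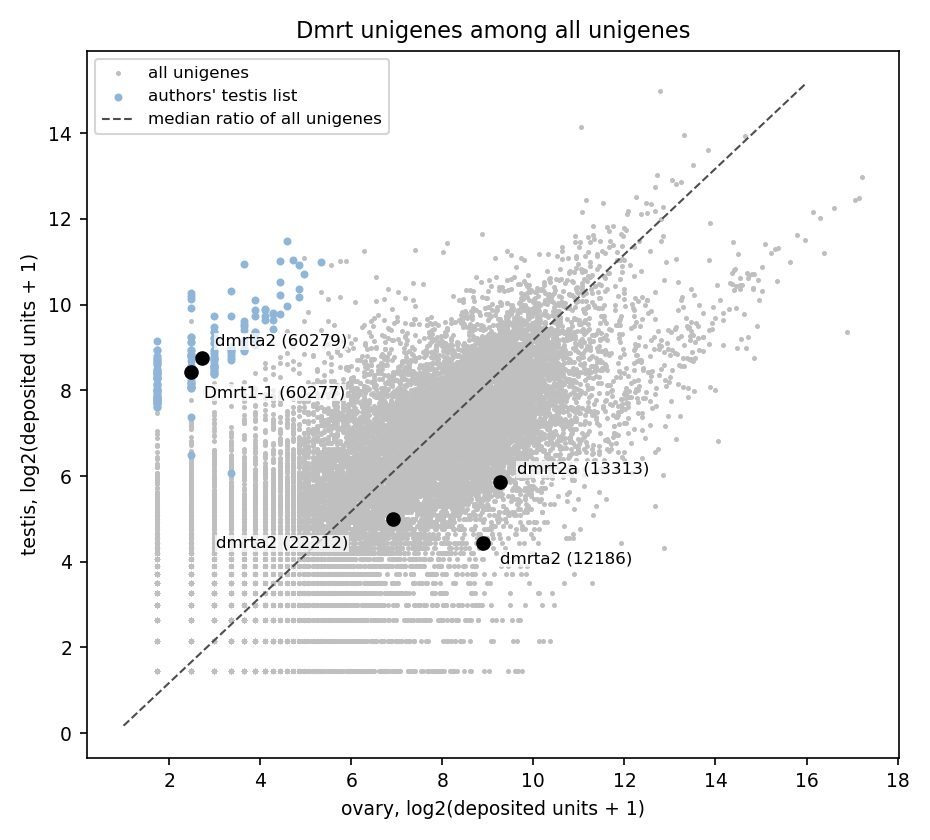
Deposited value of each of the 22634 unigenes in ovary (horizontal) and testis (vertical), as log2(units + 1), with the 171 unigenes of the authors' testis list in light blue and the 5 Dmrt unigenes in black. Dmrt1-1 and dmrta2 Unigene_60279 lie among the authors' testis list, and the other 3 lie below the dashed median ratio.

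The ratio of a unigene moved with its number, so the Dmrt unigenes were also set against their own range of numbers, below or above the median number. Unigenes numbered up to 20856 had a median log2 ratio of -0.88 relative to that of all unigenes, and the rest one of 1.07. Against its range, dmrt2a was at -1.69 in place of -2.58 and was no longer 4-fold apart. Unigene_12186 of dmrta2 was at -2.75 in place of -3.63. Unigene_22212, whose number lies a little above the dividing number, was at -2.16 in place of -1.09 and passed 4-fold. Dmrt1-1 was at 5.68 and Unigene_60279 at 5.77, above 99.2% and 99.3% of the unigenes in their range. The Dmrt unigenes of the expression table thus kept their direction, while that of Unigene_60279 was fixed by the selection.

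**Figure D4:**
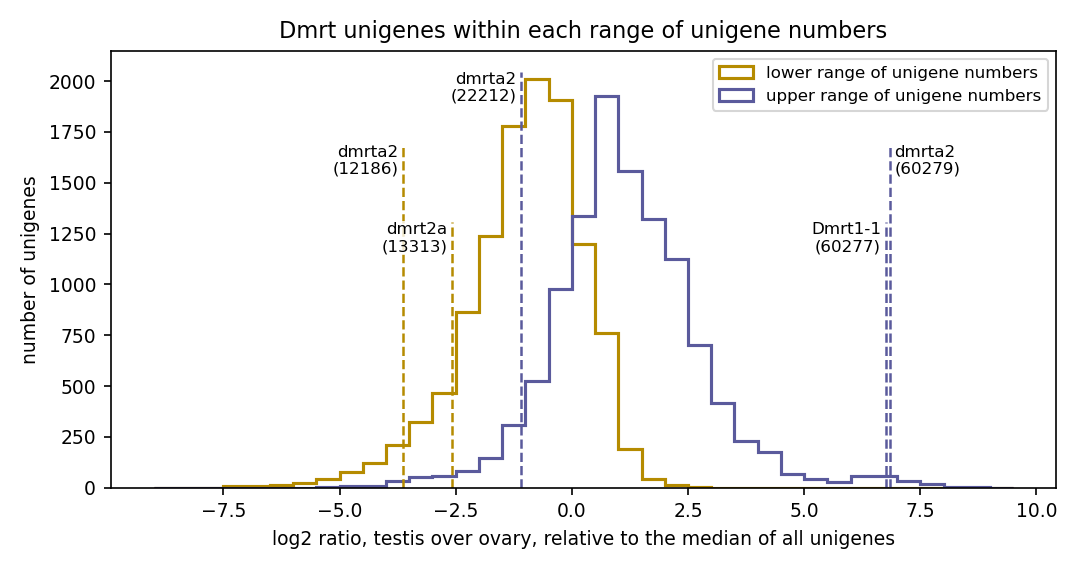
Number of unigenes by log2 ratio of testis over ovary relative to the median of all unigenes, for the lower (ochre) and upper (violet) range of the unigene numbers, with a dashed line at each Dmrt unigene in the colour of its range. The Dmrt1-1 line and that of dmrta2 Unigene_60279 lie in the far right tail of the upper range, at 6.75 and 6.84.

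The unigenes nearest to each Dmrt unigene in both libraries were taken as the 3 with the smallest distance on log2(units + 1), a likeness over 2 values only. Nearest to Dmrt1-1 was wt1a (2 ovary and 195 testis reads), a factor of kidney and gonad formation. Next were ccdc79 (2 and 205 reads), which attaches telomeres to the nuclear envelope in meiosis, and si:ch211-39i2.2 (2 and 188 reads). Both wt1a and ccdc79 are from the testis list alone. Nearest to dmrt2a were b4gat1 and wrb (258 and 33 reads each), for a glycosyltransferase and a receptor for tail-anchored proteins, and the recombination gene rad54l (257 and 32 reads). Nearest to dmrta2 Unigene_12186 was figla (201 ovary and 12 testis reads), a transcription factor of oocytes, followed by the zinc transporter slc39a13 (217 and 12 reads) and the uncharacterized Unigene_12610 (191 and 12 reads). Unigene_22212 had the same reads as swt1 and arrdc3a, with slc39a7 next (54 and 18 reads). Nearest to Unigene_60279 were ugt1b4 (2 and 254 reads), the tyrosine breakdown enzyme hpdb (2 and 256 reads) and the retinoid receptor rxrba (2 and 237 reads), all 3 from the testis list alone.

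In the RefSeq annotation of carp assembly ASM1834038v1, used for names and neighbours only, dmrt1, dmrt3a and dmrt2a follow each other on 1 chromosome, between kank1a and smarca2. The symbols Dmrt1-1 and dmrta2 are not in that annotation, and Dmrt1-1 was linked to dmrt1 by its name. The neighbours in this order did not share a direction. Dmrt1-1 was rich in testis and dmrt2a in ovary, while dmrt3a and kank1a had no row. For smarca2, a subunit of chromatin remodelling complexes next to dmrt2a, 4 of 5 unigenes were past 4-fold toward testis. This held for 13.8% of all unigenes that reached 5 units. The 4 had log2 ratios of 3.19 to 5.14, and the most read had 30 ovary and 240 testis reads. The rest of the 4 rest on few ovary reads, with 3 and 23, 2 and 64, and 1 and 24 reads. The smarca2 unigene that did not pass had 1 read in each library and did not reach 5 units. Farther along the order, fbp2 was at -3.62 and the ctsla unigenes at -1.10 and -0.48, while those of polk ran from 0.97 to 3.30. The unigenes of gc and slc4a4a lay on both sides, and dapk1 had 1 read in each library.

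Genes that work with Dmrt1 in the gonad were described by lists. Of 8 measured unigenes of the male somatic pathway, 7 reached 5 units. Of these, 5 passed 4-fold toward testis and 0 toward ovary, beside 13.8% and 11.2% of all unigenes that reached 5 units. The median log2 ratio of the 8 was 5.27 against 0 for all unigenes. All 5 are in the authors' testis list, so this is not independent of their selection, and the median of the 6 unigenes in the expression table was 2.66. They are amh, the hormone that Sertoli cells release (17 ovary and 1175 testis reads), the junction gene cldn11a (9 and 685 reads), wt1a, sox9a and the gonad transcription factor gata6 (2 and 96 reads). Only 7 of the 26 symbols of this list had a row. A unigene of cbx2, a chromatin regulator, went the other way, with 551 ovary and 109 testis reads, 3.79-fold higher in ovary (95% interval 3.08 to 4.7), and passed 4-fold in deposited units. The list of the female somatic pathway, on which Dmrt1 acts as an opponent in vertebrates, had a row for only 4 of 21 symbols. These were ctnnb1, lhx9, esr2b and fshr, and which cells of either gonad carried them was not tested. Nor was it tested whether Dmrt1 acts on any of these 4 genes. Of their 8 unigenes, 2 passed 4-fold toward testis and 1 toward ovary, beside the same 13.8% and 11.2%. The median of this list, 0.36, had no stable direction, being -0.47 in deposited units, -0.33 within ranges of unigene numbers and 3.75 with unigenes summed. With the expression table alone, 0 unigenes passed toward testis. Those higher in testis were the estrogen receptor esr2b (3 and 413 reads) and the gonadotropin receptor fshr (1 and 191 reads), both from the testis list alone. The 1 higher in ovary was a unigene of lhx9, a factor of the early gonad (16 and 2 reads). The other lhx9 unigenes had 26 and 8 reads and 4 and 5 reads. The count toward ovary was 0 with a pseudocount of 10 units, with equal total reads, within ranges of unigene numbers or with unigenes summed. That count was 2 in deposited units.

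Oocyte genes gave the clearest ovary side, with 29 of 30 unigenes past 4-fold toward ovary (11.2% of all unigenes), 0 toward testis and a median of -3.77. The 30 unigenes came from 12 of 13 symbols, and with unigenes summed 11 symbols passed toward ovary. Among oocyte genes the difference toward ovary was 39-fold (95% interval 30 to 51.6) for the growth factor gdf3. It was 24.9-fold and 23.1-fold for the 2 unigenes of btg4, which acts on maternal transcripts. For the most read unigene of the egg envelope gene zp3a.2 it was 20.3-fold. The ratio of dmrta2 Unigene_12186 (-3.63) lay near the median of this list. That of dmrt2a (-2.58) was above every oocyte unigene except those of bmp15 (-2.18 and -1.62). Of all unigenes, 2.2% had a lower ratio than Unigene_12186 and 6.04% a lower ratio than dmrt2a. The 17 germ cell unigenes came from 7 of 19 symbols. Of these unigenes, 3 passed 4-fold toward testis and 4 toward ovary, beside 13.8% and 11.2% of all unigenes. Their median of 0.99 fell to 0.16 in deposited units and to 0.06 within ranges of unigene numbers. With the expression table alone 1 passed toward testis, and with unigenes summed 2 symbols passed toward each side. The synaptonemal complex gene sycp1 (1 and 183 reads) and the recombination gene meiob (2 and 322 reads), both from the testis list alone, stood at the testis end. The RNA-binding protein gene nanos3 stood at the ovary end with 2324 and 49 reads in its most read unigene and 165 and 6 in the other.

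**Figure D5:**
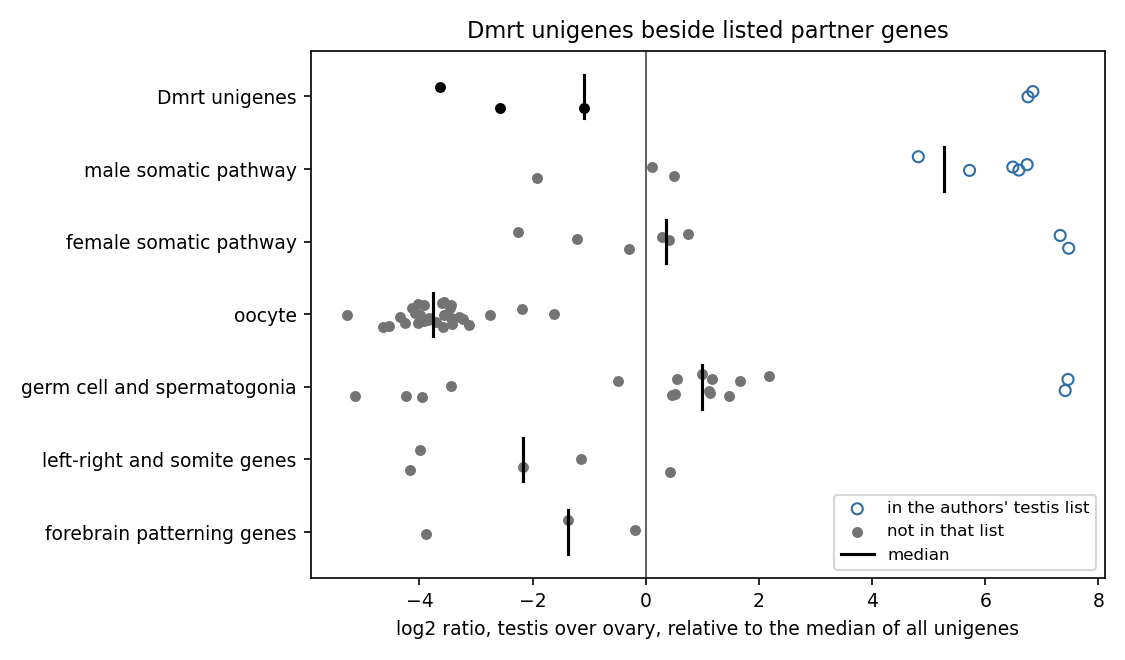
Log2 ratio of testis over ovary relative to the median of all unigenes for the Dmrt unigenes and for each list of partner genes, with 1 point per unigene, open circles for unigenes in the authors' testis list and a bar at the median. The oocyte list lies between -5.27 and -1.62, and the open circles lie at 4.82 or above.

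The settings in which dmrt2a and dmrta2 are best known, somites with left-right symmetry and the forebrain, were thinly covered. Of 26 somite and left-right symbols 4 had a row, with 5 unigenes. Of these, 3 passed 4-fold toward ovary (11.2% of all unigenes that reached 5 units did) and 0 toward testis. The count was 2 with a pseudocount of 10 units, with equal total reads or within ranges of unigene numbers, and the median of -2.17 was -0.83 with that pseudocount and -1.29 within ranges. The 3 were ripply2, which acts at somite boundaries (75 ovary and 3 testis reads), the somite factor tbx18 (37 and 1 reads) and the Notch ligand dlc (9 and 1 reads in 1 of its 2 unigenes). The Nodal gene spaw, of left-right symmetry, had 13 and 4 reads. The interval of the fold was 6.17 to 93 for ripply2 and 4.68 to 1125 for tbx18, but reached below 1 for dlc and spaw. Of 20 forebrain symbols 2 had a row, with 3 unigenes, 1 of them past 4-fold toward ovary, and a median of -1.37, which was -0.32 with a pseudocount of 10 units and -2.44 within ranges of unigene numbers. The forebrain and eye factor six3b was 18.8-fold (95% interval 4.93 to 159) higher in ovary in 1 unigene, from 50 and 2 reads, and its other unigene had 5 and 1 reads. The eye and brain factor pax6a had 8 and 5 reads.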

How the data were processed

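Libraries were prepared from total RNA with a commercial kit, per the labels' protocols. Which aligner, assembler, counting tool and genome build were used is not given in the sources used here. Values were deposited as a signal, which is reads per unigene over 1 factor per library. They rise in steps of 2.31 units in ovary and 1.73 in testis, and each step was taken as 1 read. Whole reads within 0.01 were recovered for 99.99% of values. The product of the steps is 4, so factors whose product is 1 would make a step 2 reads. With 1 library per tissue the spread between replicates could not be estimated, so no gene was called by a test on the recovered reads. Intervals that excluded the median ratio were counted, and they cover counting error only. The log2 fold was deposited as B over A, and the p-value was deposited with no method stated in the headers. To the expression table were added 147 unigenes found in the testis list alone, which holds 171.

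The log2 ratio is log2 of (testis + 1) over (ovary + 1) units minus the median of all unigenes. Folds are ratios of reads over the median ratio, without a pseudocount, with exact Clopper-Pearson intervals. Calls needed 4-fold and 5 units in the higher library. Named were every Dmrt unigene, the 3 unigenes nearest to each, and up to 4 unigenes of each of 6 lists with the largest absolute log2 ratio and at least 10 units. Genes outside this rule (sox9a, bmp15, cbx2, ctnnb1, smarca2 and other neighbours, marker genes) are named for the count or order they belong to. The members and lists were chosen with earlier results of these data known. Alternatives were pseudocounts, scalings, filters, fold thresholds, the expression table alone and summed unigenes. The calculation was tested on simulated data, whose folds were smaller than those of Dmrt1-1 and Unigene_60279. Only unigenes with many simulated ovary reads were scored, so intervals that rest on few ovary reads were not tested. Tools were Python 3.11.15, pandas 2.3.3, numpy 2.4.6, SciPy 1.17.1 and Matplotlib 3.10.9.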

Additional observations from a re-analysis of the deposited data

How the results depend on the processing

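No paired analysis was possible because each tissue has 1 library. The 4 Dmrt unigenes of the expression table kept their direction under the other pseudocounts and scalings, and with that table alone. Unigene_60279, which has no row in that table, stayed on the testis side, but the selection had fixed its direction. On the log2 scale, Dmrt1-1 ranged from 5.14 to 7.51, dmrt2a from -3.40 to -1.69, and the dmrta2 unigenes from -4.46 to -2.75 (Unigene_12186), -2.16 to -0.33 (Unigene_22212) and 5.37 to 7.59 (Unigene_60279). Values outside the counting interval were as follows. With a pseudocount of 10 units Dmrt1-1 was at 5.14, Unigene_60279 at 5.37 and dmrta2 summed at 0.23. In deposited units dmrt2a was at -3.40 and dmrta2 summed at -0.33, a reversal. With equal total reads they were at -1.83 and 1.25. Within ranges of the unigene numbers dmrt2a was at -1.69, Unigene_12186 at -2.75 and Unigene_22212 at -2.16. With the expression table alone dmrta2 summed was at -2.67, also a reversal, since the unigene rich in testis drops out, and 1 Dmrt unigene in place of 2 was at least 4-fold higher in testis. At least 4-fold higher in ovary was 1 Dmrt unigene in place of 2 with equal total reads, and 1 was at least 8-fold higher.

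Over all partner lists together, 4 unigenes in place of 10 were at least 4-fold higher in testis with the expression table alone, and 16 symbols in place of 38 unigenes were so in ovary with unigenes summed. Their median of -2.26 became -3.09 in deposited units, -1.51 with equal total reads, -3.23 with the expression table alone and -1.42 with unigenes summed. Causes were not tested beyond the fewer unigenes left. With 2 ovary reads, the depth limits the size of the Dmrt1-1 and Unigene_60279 folds to wide intervals, whose lower bounds are 35.9-fold and 45.1-fold. The bound of Unigene_60279 takes its ovary value as 2 whole reads, which gives 165-fold where the deposited value gives 135-fold. Its row comes from the testis list alone, so that bound is not independent of the selection.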
